A study of Mus musculus with 12 samples.

Results

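CpG islands that carried DNA methylation in primordial germ cells (PGCs, the embryonic precursors of eggs and sperm) but hardly any in embryonic stem cells were examined in mouse reduced representation bisulfite sequencing (RRBS) libraries. The islands were selected on their own measured levels. An autosomal island (chromosomes 1 to 19) with a level in all 12 libraries was taken when its level was at least 20% in both libraries of PGCs at embryonic day 9.5 (E9.5) and under 10% in all 4 stem cell libraries. Of 13361 autosomal islands, 248 met these thresholds, and 12569 were under 10% in the 4 stem cell libraries whatever their level in PGCs. A level is the share of methylated CpG calls among all CpG calls of the island, given here in percent, and differences between levels are in percentage points.

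The 12 libraries formed 6 groups of 2, all from C57BL6 mice. Female embryonic stem cells (ESCs) and their parthenogenetic counterparts (pESCs, made from oocytes activated without sperm and so lacking a paternal genome) were cultured lines from mice bearing an Actin-GFP transgene. ESC-PGCLCs and pESC-PGCLCs, the PGC-like cells of either origin, were induced with bFGF and activin A for 2 days to epiblast-like cells and then with BMP4, SCF, EGF and LIF for 4 days, and were sorted on integrin β3 and SSEA1. E9.5 and E12.5 PGCs were sorted from female embryos with antibodies to integrin β3 and SSEA1, or to SSEA1 alone on magnetic beads. The study calls the 2 libraries of a group biological replicates, and the labels do not say whether they came from separate lines, cultures or litters, so the spread between them may be partly technical. The levels came without read counts, so their depth is unknown, and expression markers of the sorted cell types were not analysed here.

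CpG islands are stretches of dense CpG that mostly stay unmethylated, also where the surrounding genome is methylated. Methylation at island promoters goes with stable silencing, as at genes used only in germ cells, at the inactive X chromosome and at the silenced copy of imprinted genes. Islands inside coding exons are more often methylated, since transcribed gene bodies are. PGCs lose most DNA methylation while they migrate to and settle in the gonad, and naive embryonic stem cells are also poorly methylated.

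The sequences of 8 of these islands show what was measured. They are the islands with the highest and the lowest E12.5 PGC level (Zmynd8 and Gm8495), islands at the start of a germ granule gene, a meiosis gene and an imprinted retrogene (Rnf17, Msh4 and Mcts2), and islands whose level differed between PGCLCs and E12.5 PGCs (Gm13736, Crocc and, near its start, Tob2). Each line gives the central 200 bases of the island on the plus strand of GRCm38 (mm10), from RefSeq, with every CpG, the dinucleotide whose methylation was scored, in capitals.
Zmynd8, chr2:165807699-165807898: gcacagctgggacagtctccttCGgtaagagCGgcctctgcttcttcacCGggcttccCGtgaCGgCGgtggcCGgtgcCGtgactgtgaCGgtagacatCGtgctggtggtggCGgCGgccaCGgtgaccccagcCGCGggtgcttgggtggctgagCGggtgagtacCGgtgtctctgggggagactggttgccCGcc
Rnf17, chr14:56402664-56402863: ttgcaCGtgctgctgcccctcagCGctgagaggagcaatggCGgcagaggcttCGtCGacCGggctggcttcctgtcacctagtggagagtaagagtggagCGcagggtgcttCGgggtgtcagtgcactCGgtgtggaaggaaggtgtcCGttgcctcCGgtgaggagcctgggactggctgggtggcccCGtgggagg
Msh4, chr3:153905746-153905945: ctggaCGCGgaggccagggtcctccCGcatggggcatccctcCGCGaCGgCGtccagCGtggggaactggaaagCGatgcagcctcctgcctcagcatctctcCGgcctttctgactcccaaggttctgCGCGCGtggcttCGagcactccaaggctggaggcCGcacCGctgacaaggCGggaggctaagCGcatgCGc
Mcts2, chr2:152686920-152687119: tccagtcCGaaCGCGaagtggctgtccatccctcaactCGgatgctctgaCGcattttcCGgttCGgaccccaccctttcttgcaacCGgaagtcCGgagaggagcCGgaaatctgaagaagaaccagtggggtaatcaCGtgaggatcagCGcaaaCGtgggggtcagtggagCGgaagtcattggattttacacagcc
Gm13736, chr2:87526014-87526213: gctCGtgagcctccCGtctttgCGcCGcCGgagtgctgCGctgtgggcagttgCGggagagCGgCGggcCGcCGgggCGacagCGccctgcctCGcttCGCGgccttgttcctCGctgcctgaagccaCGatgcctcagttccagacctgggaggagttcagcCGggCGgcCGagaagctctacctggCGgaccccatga
Crocc, chr4:141041594-141041793: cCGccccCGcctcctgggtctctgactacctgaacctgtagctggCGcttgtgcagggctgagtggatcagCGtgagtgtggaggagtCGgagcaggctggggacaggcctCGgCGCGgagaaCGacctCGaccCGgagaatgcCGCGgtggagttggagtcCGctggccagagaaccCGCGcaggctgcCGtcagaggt
Tob2, chr15:81859661-81859860: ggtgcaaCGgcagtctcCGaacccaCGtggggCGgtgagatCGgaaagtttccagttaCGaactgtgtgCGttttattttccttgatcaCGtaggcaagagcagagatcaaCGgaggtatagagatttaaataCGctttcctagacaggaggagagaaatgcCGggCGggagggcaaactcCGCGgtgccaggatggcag
Gm8495, chr9:96536985-96537184: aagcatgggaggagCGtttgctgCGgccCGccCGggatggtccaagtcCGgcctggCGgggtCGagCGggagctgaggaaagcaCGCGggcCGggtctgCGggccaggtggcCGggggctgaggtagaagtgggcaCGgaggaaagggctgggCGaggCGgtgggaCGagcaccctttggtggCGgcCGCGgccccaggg
These windows hold between 12 CpG sites, at Rnf17, and 22, at Gm13736. The recognition sequence of MspI (CCGG), whose cuts decide which fragments RRBS reads, occurs between 1 and 4 times in each.

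Most of the 248 islands did not lie at a gene start. By the GENCODE M21 annotation, 133 (53.6%) lay inside a gene and more than 1000 bases from any transcript start, 129 of them on an exon and 4 in an intron. Gene starts held 102, of which 50 (20.2%) were starts of protein-coding genes, 37 (14.9%) of pseudogenes and 15 (6.05%) of non-coding RNA genes, and 13 (5.24%) lay between genes. Of the other 13113 autosomal islands, 80.7% lay at the start of a protein-coding gene, 11.4% inside a gene and 1.04% at a pseudogene. Seen from the islands that were under 10% in the stem cells, those selected made up 0.478% of the islands at protein-coding starts (50 of 10457), 11.7% of those inside genes (133 of 1135) and 31.9% of those at pseudogene starts (37 of 116). These shares describe the selection and carry no test. Of the 129 exonic islands, 119 (92.2%) were coding over most of their length, against 79.9% of other exonic islands. Their median distance to the gene start was 7580 bases with the 4 intronic islands included (quartiles 4127 and 17537), and they fell in 129 genes.

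The islands were shorter and less dense in CpG than the other autosomal islands, with a median length of 431 against 620 bases, 9.08 against 10.17 CpG per 100 bases, and 4 against 8 MspI sites. Inside genes this difference was small or turned. Selected islands there had a median of 452 bases, 8.70 CpG per 100 bases and 4 MspI sites, and other islands inside genes had 389 bases, 8.87 CpG and 4 sites. At protein-coding starts the selected islands had 465.5 bases, 9.31 CpG per 100 bases and 4 sites, against 669 bases, 10.39 CpG and 9 sites. Few of the islands had a near copy, as the central 200 bases matched a second place in the genome with at least 190 bases in 5 of 248 (2.02%), against 0.473% of the others.

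The motif CACGTG (the E-box core, its own reverse complement) occurred in the central 200 bases of 27 of the 248 islands (10.9%) and of 5.10% of all autosomal islands. Inside genes it was found in 14 of 133 selected islands (10.5%) and in 7.6% of all, and at protein-coding starts in 6 of 50 (12%) and 4.58%. At pseudogene starts it was less frequent in the selected islands (2 of 37, 5.41%) than in all (6.32%), at non-coding RNA starts it was in 1 of 15 (6.67%) and 4.56%, and between genes in 4 of 13 (30.8%) and 8.07%. The longer TCACGTGA, which contains CACGTG, was in 1 of 248 (0.403%) and 0.494% of all. GCGCGAAA, searched on both strands, was in 0 of 248 and 0.412% of all.

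The E9.5 PGC levels that chose the islands ranged from just over the threshold to near full methylation. Their mean was 52.1% and 51.9% in the E9.5 PGC libraries, with quartiles of the group means at 31.1% and 74.6%, and 112 of 248 islands averaged 50% or more. The highest was the coding exon of Tenm3 (chr8:48228508-48229133), a cell adhesion protein of neurons, at 95.5% in both libraries, and islands of Zfhx3, Tiam1 and Pigt were also high, at levels between 91.2% and 94.2%. In the stem cells the islands averaged 4.37% and 3.90% in the ESC libraries and 3.84% and 4.36% in the pESC libraries. Just inside the E9.5 PGC threshold were Best2 (20.1% in its lower library), an island at AC132288.2 (20.4%) and Npffr1 (20.4%), and just outside were Dact3 (19.99%), Psat1 (19.9%) and Gm12818 (19.7%). At the stem cell threshold, islands of St8sia5 (9.95% in its highest stem cell library), Zfhx3 (9.91%) and AC154486.1 (9.87%) were in, and those of Socs6 (10%), the germ cell helicase gene Ddx4 (10.1%) and Usp44 (10.5%) were out.

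**Figure D1:**
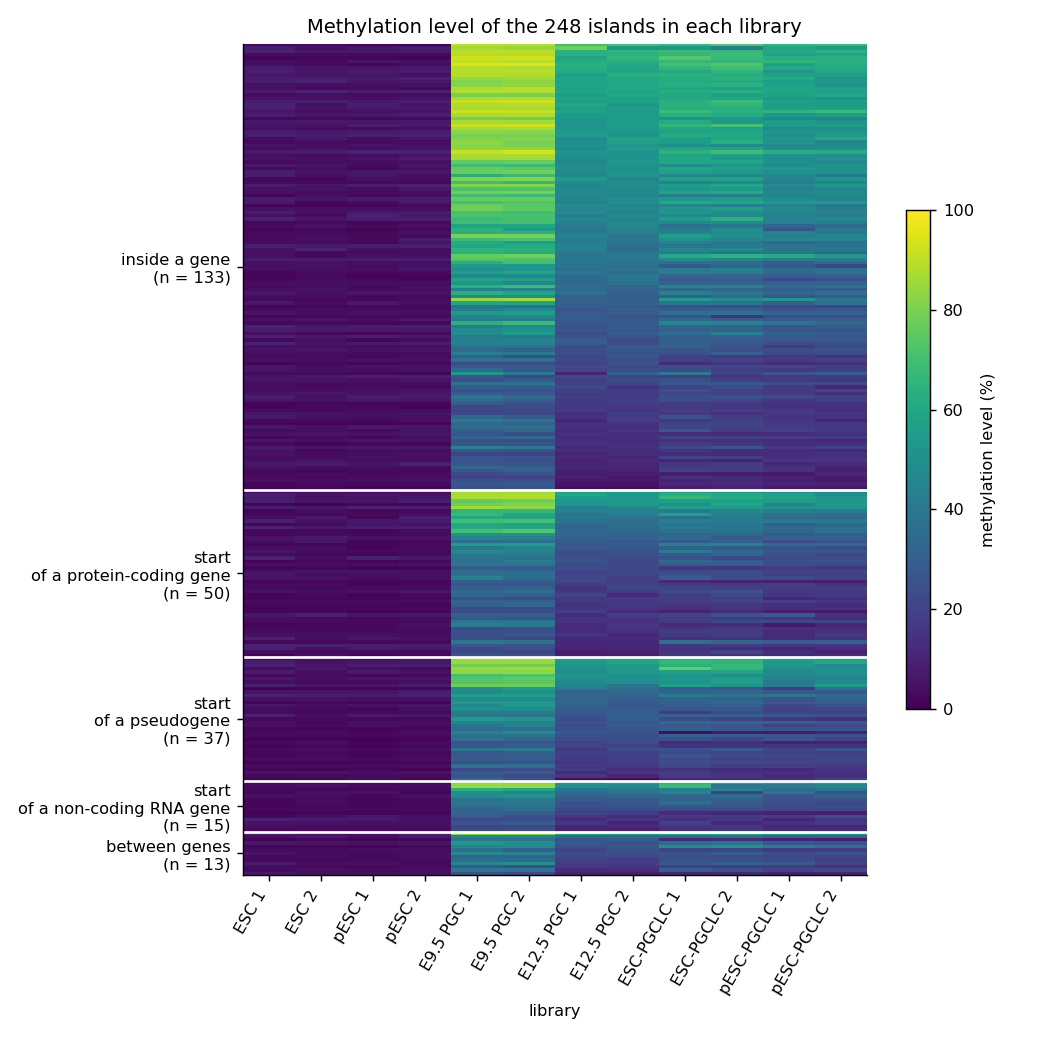
Methylation level in percent (colour) of the 248 islands (rows) in the 12 libraries (columns), grouped by position and ordered within a group by mean E12.5 PGC level. The ESC and pESC columns and the E9.5 PGC columns were used for the selection, and the 6 columns to their right were not; those 6 columns average between 31.1% and 35.9%.

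Levels in the 6 libraries the selection did not use lay between those extremes. The mean over the 248 islands was 31.7% and 32.25% in E12.5 PGCs, 35.9% and 35.3% for ESC-PGCLCs, and 31.10% and 31.14% for pESC-PGCLCs. Over all 13361 islands the group means were 4.99% in E12.5 PGCs, 5.59% for ESC-PGCLCs and 5.199% for pESC-PGCLCs, and over the 12569 islands low in stem cells they were 2.80%, 2.96% and 2.82%. Libraries of a group differed little at a typical island, with a median gap of 2.17 points in E12.5 PGCs, 2.15 for ESC-PGCLCs and 1.97 for pESC-PGCLCs. Gaps of 10 points or more occurred at 3, 7 and 6 islands of these groups.

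Most of the islands were at 20% or more in each of these groups. In E12.5 PGCs 167 of 248 (67.3%) were at 20% or more in both libraries, against a background of 5.73% of all autosomal islands. In ESC-PGCLCs 172 (69.4%) were, against 5.88%, and in pESC-PGCLCs 157 (63.3%), against 5.73%. The selection itself required 20% at E9.5, which most autosomal islands did not reach. Levels were higher over the 626 other islands at 20% or more in both E9.5 PGC libraries. Their lower quartiles were 43.3% in E12.5 PGCs, 52.1% for ESC-PGCLCs and 46.75% for pESC-PGCLCs, against 17.95%, 20.1% and 16.98% for the 248. The reverse view is close to closed, since 170 of the 12569 islands low in stem cells passed 20% in both E12.5 PGC libraries and 167 of these (98.2%) were among the 248. For ESC-PGCLCs this was 172 of 173 and for pESC-PGCLCs 157 of 157. Mean levels were lower than at E9.5 in each of these groups, so the thresholds largely fixed these counts and nothing is read from them. In all 6 unused libraries 148 islands were at 20% or more, and 43 were under 20% in every one. Group means of 50% or more were reached by 51 islands in E12.5 PGCs, 68 for ESC-PGCLCs and 46 for pESC-PGCLCs, and means under 10% by 11, 3 and 13.

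All 248 islands had a lower mean in E12.5 than in E9.5 PGCs, and in 245 both E12.5 libraries were below both E9.5 libraries, where 29.5% of all autosomal islands were. The selection used the E9.5 PGC values, so nothing is read from this count. The median island kept 62.9% of its E9.5 PGC level (quartiles 53.4% and 67.7%). The share kept ranged from 10.5% at the pseudogene Gm8495 to 95.6% at an exon of Disp3, of the Dispatched family. The order of the islands was largely the same at both ages, with a Spearman correlation across the 248 islands of 0.936 between E9.5 and E12.5 PGC means, a description over islands that share the same libraries. CpG density (Spearman correlation -0.189), GC content (-0.211) and length (-0.108) ordered the E12.5 PGC levels far less.

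Islands inside genes averaged 58.2% in E9.5 PGCs, 36.2% for E12.5 PGCs, 40.2% for ESC-PGCLCs and 35.5% for pESC-PGCLCs. Islands at protein-coding starts averaged 43.5%, 25.4%, 29.2% and 25.1% in the same order, and pseudogene starts 48.5%, 30.4%, 32.6% and 28.2%. Starts of non-coding RNA genes had 26.6% and islands between genes 24.3% in E12.5 PGCs. The islands of a position varied widely, and the quartiles of the E12.5 PGC means overlapped between islands inside genes (21.1% and 50.8%) and protein-coding starts (15.3% and 33.7%). In each of these 5 positions the ESC-PGCLC mean was above the pESC-PGCLC mean.

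**Figure D2:**
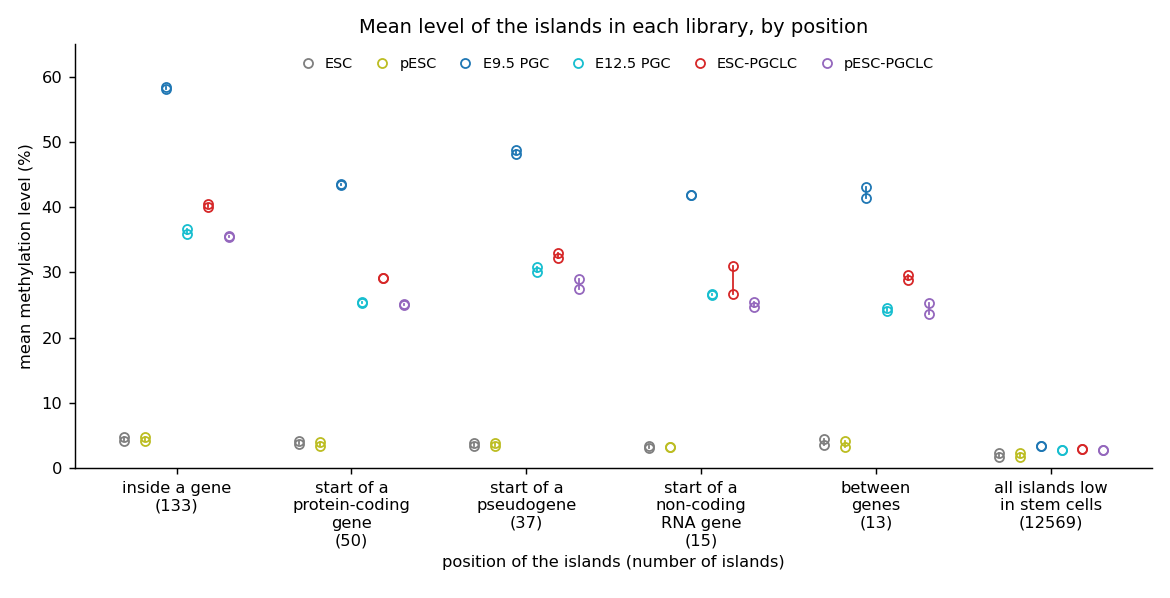
Mean methylation level in percent over the islands of each position (x axis, with the number of islands) in each of the 12 libraries (circles, 2 per group, joined by a line). The mean was highest for islands inside genes, at 36.2% in E12.5 PGCs against 24.3% for islands between genes, and the 12569 islands low in stem cells stayed at 2.80%.

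The islands described here from the top of the E12.5 PGC levels lay on exons. That of Zmynd8 (chr2:165807681-165807917), a reader of histone marks, was at 69.4% and 70.2% in E12.5 PGCs, 66.6% and 74.0% for ESC-PGCLCs and 66.2% and 68.5% for pESC-PGCLCs, after 90.5% and 89.8% at E9.5, with at most 3.34% in any stem cell library. The next, an island of the transcription factor Zfhx3 (chr8:108792264-108792751), had the widest gap between E12.5 PGC libraries, at 78.4% and 53.1%, so its rank rests on 1 library. St6gal2 (a sialyltransferase), Bcl11b (a transcription factor of T cells and neurons), Pde4dip, Tenm3 and Repin1 (a zinc finger protein) had E12.5 PGC means between 60.6% and 64.6%. In these 5 the ESC-PGCLC means were between 66.3% and 71.75% and the pESC-PGCLC means between 58.5% and 64.5%.

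At the other end, the 8 lowest islands had E12.5 PGC means between 3.12% and 8.65%. The start of the pseudogene Gm8495 (chr9:96536970-96537199) was at 35.2% and 24.4% in E9.5 PGCs, 3.59% and 2.65% for E12.5 PGCs, 11.7% and 13.1% for ESC-PGCLCs and 14.5% and 20.1% for pESC-PGCLCs. An exon of the signalling ligand gene Wnt6 (chr1:74784036-74784616) had 25.2% and 25.5% in E9.5 PGCs, 3.36% and 3.73% for E12.5 PGCs, 8.07% and 10.1% for ESC-PGCLCs, and 6.69% and 6.94% for pESC-PGCLCs. These E12.5 PGC values were near the stem cell level, which was at most 1.92% in any library at Wnt6. The others were in AI661453, Abr (a regulator of small GTPases), Best2 (a chloride channel) and Art1 (an ADP-ribosyltransferase), and at the starts of Mavs (an adaptor of antiviral signalling) and Ccdc182. Their E12.5 PGC means ran from 4.71% to 8.65%.

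Germline genes, which are used in germ cells and kept silent elsewhere, were followed through a list of 66 genes. Of these 37 had a measured autosomal island, and 5 of the 37 islands (13.5%) were among the 248, where 1.86% of all autosomal islands were. The start of Rnf17 (chr14:56402619-56402909), which encodes a germ granule protein, had levels of 65.4% and 66.1% in E9.5 PGCs, 43.9% and 44.3% for E12.5 PGCs, 41.0% and 46.1% for ESC-PGCLCs and 42.95% and 41.1% for pESC-PGCLCs. The ESC-PGCLC libraries spanned the E12.5 PGC levels there, and both pESC-PGCLC libraries lay just below them. Msh4 (chr3:153905620-153906071), a meiotic recombination gene, had 69.8% and 73.5%, then 33.9% and 34.2%, 37.2% and 38.4%, and 32.4% and 36.4% in the same order.

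The island shared by the starts of Tex14, whose protein forms the bridges between germ cells, and the repair gene Rad51c (chr11:87404208-87405095) had E12.5 PGC levels of 40.4% and 37.8%, ESC-PGCLC levels of 35.6% and 41.9% and pESC-PGCLC levels of 35.8% and 34.6%. Meioc (chr11:102665169-102666458), needed for meiotic prophase, was higher in ESC-PGCLCs (27.8% and 29.5%) than in E12.5 PGCs (23.2% and 22.6%) or pESC-PGCLCs (23.9% and 23.0%). Boll (chr1:55362482-55363657), an RNA-binding protein of the DAZ family, was also highest there, at 24.8% and 23.5%, against 20.1% and 20.9% in E12.5 PGCs and 18.4% and 19.5% for pESC-PGCLCs. None of the 5 germline islands was called between any of the 3 groups by limma at an adjusted p under 0.05 and 10 points. Meioc missed the call in ESC-PGCLCs against E12.5 PGCs only through the 10 points, with a difference of 5.76 points and a limma adjusted p of 0.039.

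The remaining 32 islands of germline genes were split by the thresholds. At 13 the level was under 20% in an E9.5 PGC library, as at Stag3, Prdm9 and Tdrd5. The other 19 were methylated in E9.5 PGCs and missed the selection through a stem cell level of 10% or more, among them Dazl, Ddx4, Mael, Sycp1 and Stra8. These 19 had median levels of 22.1% in ESCs and 21.5% in pESCs, of 50.2% in E12.5 PGCs, and of 59.0% and 54.9% in the PGCLCs of ESC and pESC origin. Several other starts among the 248 belong to genes known for use in testis or oocyte, and were named after their values were seen. Hsf5 averaged 53.7% in E12.5 PGCs, Zglp1 37.9%, Rbmxl2 15.5%, Papolb 14.6% and Khdc3 10.5%.

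**Figure D3:**
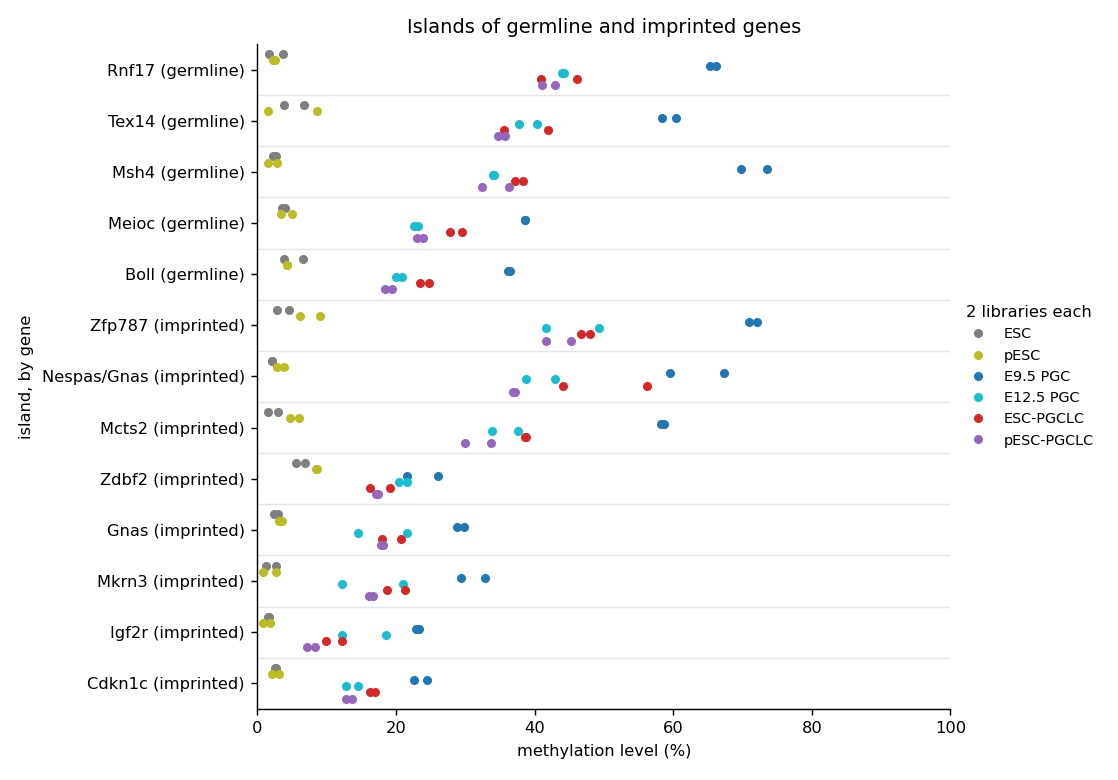
Methylation level in percent (x axis) of the 5 islands of listed germline genes and the 8 of listed imprinted genes (y axis) in the 12 libraries, 2 points per group. E9.5 PGC points are the rightmost at each of the 13 islands except Zdbf2, where an E9.5 PGC and an E12.5 PGC library both had 21.6%, and ESC and pESC points are all under 10%.

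Of 46 islands at 36 imprinted genes, 8 (17.4%) were among the 248. The alleles cannot be told apart in these data. At the Gnas locus, which encodes the stimulatory G protein subunit and several overlapping transcripts, 2 islands were selected. The upstream one (chr2:174284648-174285390), also within the antisense gene Nespas, had levels of 67.3% and 59.5% in E9.5 PGCs, 38.7% and 43.0% for E12.5 PGCs, 56.3% and 44.1% for ESC-PGCLCs and 37.1% and 36.9% for pESC-PGCLCs. The downstream one (chr2:174327294-174331145) was lower, with 28.8% and 29.8%, 14.5% and 21.6%, 20.8% and 18.03%, and 17.9% and 18.1%.

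Mcts2 (chr2:152686810-152687230), an imprinted retrogene within H13, had 58.7% and 58.2% in E9.5 PGCs, 33.8% and 37.6% for E12.5 PGCs, 38.7% and 38.6% for ESC-PGCLCs and 29.97% and 33.8% for pESC-PGCLCs. The start of Igf2r (chr17:12769059-12770009), the receptor that clears IGF2, had 23.3% and 22.8%, 18.6% and 12.2%, 9.90% and 12.2%, and 8.25% and 7.13%. Its pESC-PGCLC levels did not overlap with those of E12.5 PGCs, but neither contrast was called. Zfp787 (45.5% in E12.5 PGCs), Zdbf2 (21.1%), Mkrn3 (16.6%) and Cdkn1c (13.7%), a brake on the cell cycle, completed the list, and the E12.5 PGC libraries of Mkrn3 lay far apart at 21.01% and 12.2%. Among the 38 imprinted-gene islands outside the selection, 21 were under 20% in an E9.5 PGC library and 17 were not. Of these 17, 6 were under 10% in both ESC libraries and were kept out by pESCs alone, as at Airn (2.06% in ESCs and 63.0% in pESCs).

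The share of selected islands in the other gene lists is given beside 1.86% of all autosomal islands. The counts were small, and differences from that share were not tested. Of 293 islands at Hox, Pax, Sox, Fox, Gata, Tbx and related developmental genes, 1 (0.341%) was selected, a coding exon of Foxo3 (chr10:42196983-42197868) at 58.4% and 58.2% in E12.5 PGCs, 62.2% and 62.9% for ESC-PGCLCs and 59.0% and 56.9% for pESC-PGCLCs. None of 18 islands at pluripotency and PGC identity genes was selected. Of 197 islands at signalling ligand and receptor genes, 5 were (2.54%), each on an exon, and 3 of these kept 20% in both E12.5 PGC libraries. Efnb2, a membrane ligand of Eph receptors, averaged 53.2%, the receptor Notch3 28.6% and the guidance factor Sema6b 25.9% in E12.5 PGCs, while the ephrin Efna2 averaged 16.9% and Wnt6 3.54%.

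Among 23 islands at genes of the DNA methylation machinery, 1 was selected (4.35%), a coding exon of Trim28, the partner of KRAB zinc finger proteins, at 13.3% and 12.9% in E12.5 PGCs. Of 11 islands in the clustered protocadherin genes, which give neurons their surface identity, 3 were selected (27.3%). Pcdhb17 averaged 33.6%, Pcdhga3 22.6% and Pcdha5 18.7% in E12.5 PGCs. At Pcdhga3 both ESC-PGCLC libraries (15.7% and 16.2%) and both pESC-PGCLC libraries (17.7% and 16.3%) were below both E12.5 PGC libraries (23.9% and 21.3%). Neither contrast was called. For ESC-PGCLCs the call was missed only through the size of the difference (-6.59 points, limma adjusted p 0.025). For pESC-PGCLCs the difference was -5.53 points (limma adjusted p 0.084).

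For islands inside genes, levels at the host promoter and in the flanking shores were available. The 120 such islands with a host promoter level in all libraries had a median of 60.8% in E9.5 PGCs and 39.7% for E12.5 PGCs, where the promoters of their 116 host genes had medians of 5.84% and 4.30%. In ESC-PGCLCs the medians were 42.2% for the islands and 4.91% for the promoters, and in pESC-PGCLCs 36.0% and 4.65%. Of the 116 promoters, 65 were under 10% in E9.5 PGCs and 41 were at 20% or more. Shores of the islands inside genes (n = 104) had medians of 67.8% in E9.5 PGCs, 41.0% for E12.5 PGCs, 49.9% for ESC-PGCLCs and 44.3% for pESC-PGCLCs, and of 15.4% in ESCs and 14.9% in pESCs. In the groups the selection did not use, the islands had their lowest median in pESC-PGCLCs and the shores in E12.5 PGCs. Over all autosomal islands the shore medians were 7.05% in E9.5 PGCs, 5.30% for E12.5 PGCs, 4.75% in ESCs and 4.89% in pESCs. Methylated shores were not particular to the selected islands. For the other islands at 20% or more in both E9.5 PGC libraries, at any position (n = 477), the medians were 74.1%, 48.0%, 37.0% and 36.9% in the same order.

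**Figure D4:**
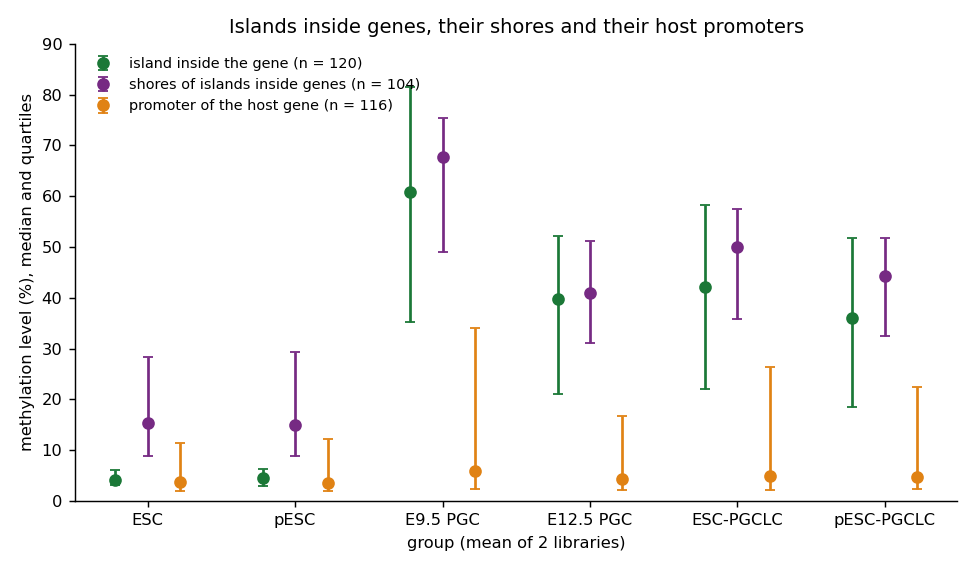
Median methylation level in percent (points) with quartiles (bars) of selected islands inside genes, of the shores of islands inside genes and of the promoters of the host genes, for the 6 groups (mean of 2 libraries). The E12.5 PGC medians were 39.7%, 41.0% and 4.30%.

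Whether PGCLCs carried the levels of E12.5 PGCs was tested with limma over 138361 features of all classes in the 6 unused libraries, and a feature was called at an adjusted p (Benjamini-Hochberg) under 0.05 and a difference of 10 points. Both PGCLC contrasts share the E12.5 PGC libraries. In ESC-PGCLCs 19 of the 248 islands were called higher and 2 lower than in E12.5 PGCs. Without the 10-point requirement, 61 had a limma adjusted p under 0.05, a count not made over all features. The background for the calls was 21.4% of all features called higher and 0.536% lower, and among 13484 autosomal islands 1.82% higher and 0.0816% lower. The upper quartile of autosomal islands was 2.52% in E12.5 PGCs and 2.61% for ESC-PGCLCs, so most were too low to differ by 10 points. In a fit without features whose mean was under 5%, 262 of 1326 autosomal islands were called higher and 11 lower, and 20 and 2 of the 248. The median difference over the 248 islands was 3.58 points, against 2.97 over all features and 0.0626 over autosomal islands. In 148 islands (59.7%) both ESC-PGCLC libraries were above both E12.5 PGC libraries, where 25.9% of all autosomal islands were. Of the 626 other islands at 20% or more in both E9.5 PGC libraries, 505 (80.7%) were, a larger share than among the 248. By position, calls in the higher direction were 10 of 133 inside genes, 3 of 50 at protein-coding starts, 2 of 37 at pseudogene starts, 0 of 15 at non-coding RNA starts and 4 of 13 between genes. The share called among all islands of each position was not counted, so no effect of position is read from these counts.

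The largest rise was at an island between genes, 1160 bases from Tob2, an antiproliferative factor (chr15:81859645-81859877). Its levels were 23.5% and 26.8% in E12.5 PGCs and 49.3% and 50.1% for ESC-PGCLCs, with 43.3% and 36.9% for pESC-PGCLCs and 46.2% and 47.1% at E9.5 (limma adjusted p 0.00978). The ESC-PGCLC levels were thus above those of E9.5 PGCs. The start of Pde1c (chr6:56568619-56569026), a phosphodiesterase of cyclic nucleotides, had 11.2% and 11.7% in E12.5 PGCs, 36.4% and 34.0% for ESC-PGCLCs and 29.1% and 31.6% for pESC-PGCLCs, after 40.6% and 38.6% at E9.5. It was called higher in both kinds of PGCLC, with log2 odds differences of 1.98 (SE 0.121, limma adjusted p 0.00620) and 1.67 (SE 0.121, limma adjusted p 0.0203).

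An exon of Crocc (chr4:141041583-141041805), which encodes the rootlet protein of cilia, had 39.2% and 40.1% in E12.5 PGCs, 61.3% and 65.1% for ESC-PGCLCs and 61.6% and 54.1% for pESC-PGCLCs (limma adjusted p 0.0112 for ESC-PGCLCs). Daxx (chr17:33911574-33912013), a chaperone of histone H3.3, had 31.7% and 29.97%, 55.1% and 49.0%, and 53.7% and 39.4% (adjusted p 0.0325 by limma). The pseudogene Gm3375 (chr7:3181032-3181267) had 49.4% and 55.2%, 76.8% and 66.7%, and 49.4% and 50.6% (adjusted p 0.0272 by limma). At Gm3375 the pESC-PGCLC levels overlapped with those of E12.5 PGCs and the ESC-PGCLC levels did not. The other 14 called rises ranged from 10.8 points, near Fam53a, to 17.6 points, in Rasgrp2.

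In the lower direction 2 islands were called in ESC-PGCLCs. The pseudogene Gm13736 (chr2:87526008-87526220) had 27.2% and 25% in E12.5 PGCs, 3.89% and 6.71% for ESC-PGCLCs and 6.92% and 9.73% for pESC-PGCLCs, after 42.6% and 49.3% at E9.5. The PGCLC levels were close to the stem cell levels, which were between 2.05% and 3.65%. An island 1590 bases from the pseudogene Mrto4-ps2 (chr12:21778297-21779153) had 26.6% and 30.2%, 11.5% and 13.2%, and 8.84% and 8.18%. Both were called lower in both contrasts, with limma adjusted p of 0.00996 and 0.0454 for Gm13736 and 0.00917 and 0.0207 for Mrto4-ps2.

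In pESC-PGCLCs 2 of the 248 islands were called higher and 6 lower than in E12.5 PGCs. Without the 10-point requirement, 10 had a limma adjusted p under 0.05. The background for the calls was 3.24% of all features higher and 0.155% lower, with 0.245% and 0.0816% of the autosomal islands, most of which were too low to differ by 10 points. In the fit without features under 5%, 68 of 1326 autosomal islands were called higher and 17 lower, and 5 and 8 of the 248. The median difference was -0.806 points, against 1.30 over all features and 0.0325 over autosomal islands. Besides Pde1c, Gm8495 was called higher (limma adjusted p 0.0298). Besides Gm13736 and Mrto4-ps2, an exon of Smad6 (chr9:63953582-63954041), the inhibitory Smad of BMP signalling, was lower, with 34.5% and 39.1% in E12.5 PGCs, 28.4% and 28.6% for ESC-PGCLCs and 21.5% and 24.3% for pESC-PGCLCs (limma adjusted p 0.0457). The pseudogene Gm13135, the protein-coding start of Gm21863 and the non-coding start of Gm40849 had E12.5 PGC means of 22.1%, 19.7% and 19.04% and pESC-PGCLC means of 9.44%, 8.29% and 8.61%. The central 200 bases of these 6 islands each matched 1 place in the genome.

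**Figure D5:**
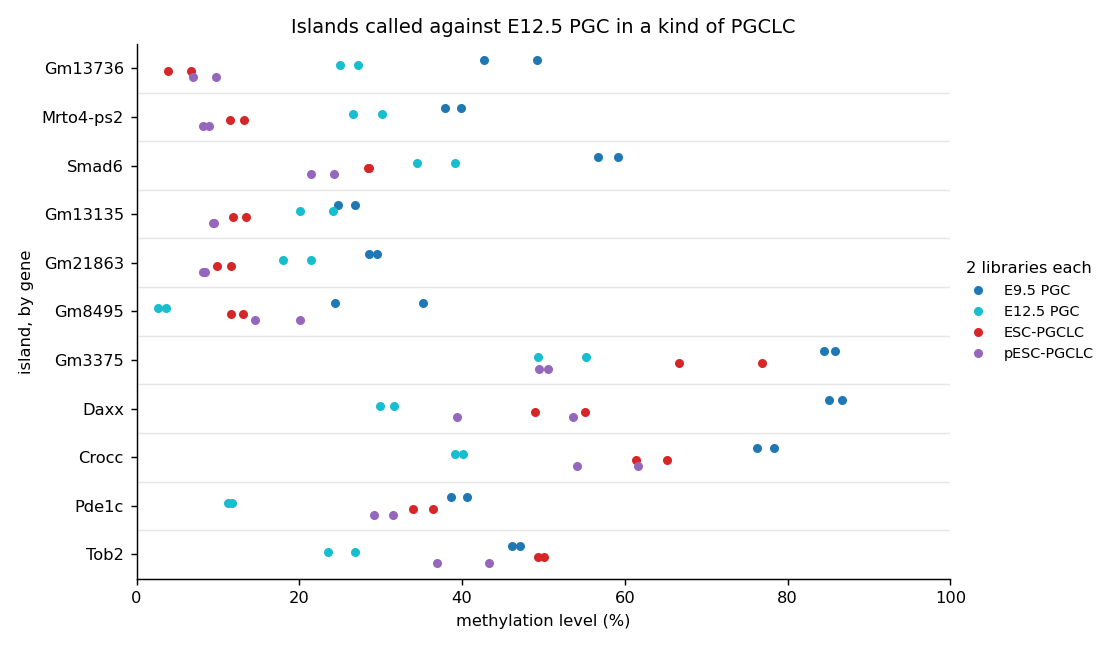
Methylation level in percent (x axis) of 11 islands called in ESC-PGCLCs or pESC-PGCLCs against E12.5 PGCs (y axis, by gene; Tob2 and Mrto4-ps2 are the nearest genes), 2 points per group. At Pde1c the E12.5 PGC points are at 11.2% and 11.7% and both kinds of PGCLC lie between 29.1% and 36.4%, and at Gm13736 the order is the opposite.

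These counts were fragile with 2 libraries a group. With 1 library left out, its group held a lone sample that was assumed to vary like the other groups. Without E12.5 PGC replicate 1 a single island, Pde1c, was called in ESC-PGCLCs, and without ESC-PGCLC replicate 2 there were 2 calls, while without E12.5 PGC replicate 2 or ESC-PGCLC replicate 1 there were 13. In pESC-PGCLCs no island was called after any of the 6 libraries was left out. Subtracting from every library its median over all features, which turned the median over all features from 2.97 to -2.99 points, left 2 higher and 14 lower calls in ESC-PGCLCs in place of 19 and 2, and 1 and 4 in pESC-PGCLCs in place of 2 and 6.

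Between the kinds of PGCLC, limma called 0 of the 248 islands, while 90 had an unadjusted p under 0.05, and 0.0282% of all features were called higher and 0.00723% lower in pESC-PGCLCs. The levels were nonetheless mostly lower in pESC-PGCLCs, with 232 of 248 group means below that of ESC-PGCLCs and a median difference of -4.34 points (quartiles -6.55 and -2.25), against -0.952 over all features and -0.0454 over autosomal islands. Both pESC-PGCLC libraries were below both ESC-PGCLC libraries at 174 islands (70.2%), where 22.6% of all autosomal islands were. Autosomal islands averaged 5.59% for ESC-PGCLCs, so the 626 other islands at 20% or more in both E9.5 PGC libraries were also set beside the 248. Of these 463 (74.0%) were lower without overlap, with a median difference of -5.74 points. After centring, 194 of the 248 were lower in pESC-PGCLCs with a median of -2.37 points, where the median over all features was 1.01.

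The same 626 islands had a level of 10% or more in at least 1 of the 4 stem cell libraries. Their means were 31.9% in ESCs and 32.3% in pESCs, 48.9% in E12.5 PGCs, 57.9% for ESC-PGCLCs and 52.5% for pESC-PGCLCs. The stem cell libraries lay apart at these islands, with means of 39.3% and 24.6% in ESCs and 34.9% and 29.6% in pESCs. Their median difference from E12.5 PGCs was 9.04 points in ESC-PGCLCs and 3.13 points in pESC-PGCLCs, where the 248 islands had 3.58 and -0.806. Of the 626, 72.7% lay inside genes, 12.9% at protein-coding starts and 8.63% at pseudogene starts. These values are descriptive, and the difference between the sets was not tested.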

How the data were processed

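The deposited files gave, for each library, the methylation level of a feature as a fraction, which the authors obtained as methylated over all CG calls after alignment with Bismark 0.16.3 and Bowtie2 to mm10 (submitters' processing notes), with correction for non-conversion. Coverage and the coverage minimum are not given in the sources used here. Island starts, counted from 0 in the files, are given from 1. The islands and gene lists were chosen with earlier results of these data known. Named islands are the 8 highest and lowest at E12.5, up to 5 called rises and falls a contrast, up to 10 of each gene list, the 5 highest at E9.5 and 3 on each side of a threshold; others were chosen after their values were seen, and 1 island is not reported here. Levels were fitted with limma 3.58.1 (R 4.3.3) on log2((level + 0.01)/(1 - level + 0.01)) and adjusted over all features. The fit was also run on simulated data with shifted pESC-PGCLC levels. The outcome is not given here, so nothing is drawn from it. Near copies were sought with minimap2 2.31-r1302. Python 3.11.15 and matplotlib 3.10.9 made the other values and plots. Alternatives are described in the closing section.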

Additional observations from a re-analysis of the deposited data

Results flagged for a closer look

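The X chromosome was outside the selection. Of its 348 islands with a level in all libraries, 95 (27.3%) met the same thresholds, against 1.86% of autosomal islands. Their mean levels were 2.44% and 2.58% in ESCs, 2.14% and 2.66% in pESCs, 30.4% and 30.1% in E9.5 PGCs, 21.03% and 22.1% for E12.5 PGCs, 20.7% and 22.4% for ESC-PGCLCs, and 19.98% and 20.1% for pESC-PGCLCs. In the libraries not used for the thresholds the X islands thus averaged less than the 248 autosomal islands, whose means were between 31.1% and 35.9%.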

How the results depend on the processing

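With thresholds of 30% and 5% the selection held 98 islands and with 15% for both 388. Mean levels under these were 35.2% and 30.2% in E12.5 PGCs (main 32.0%), 38.6% and 34.2% for ESC-PGCLCs (35.6%), and 33.6% and 29.9% for pESC-PGCLCs (31.1%), and medians over the islands were 28.3%, 31.3% and 27.4%. Islands at 20% in both libraries numbered 84, 84 and 80 under the stricter thresholds, and 104 passed 30% for pESC-PGCLCs. For ESC-PGCLCs against E12.5 PGCs the 21 calls became 9 with autosomal islands alone, and between 1 and 18 without single libraries. For pESC-PGCLCs the 8 calls became 13 with an offset of 0.1, 13 in a fit of 8 libraries, 13 without features under 5%, 5 after centring, and 0 without any single library (range 0 to 0). With the replicate number as a block there were 17 and 0 calls, but same-numbered libraries did not deviate together (correlations -0.0190, -0.0181 and 0.04997). None of the named calls turned in direction. Other causes of these changes were not tested. Depth is unknown, which limits single islands most.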
